A study of Homo sapiens with 30 samples.

Results

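CEBPA was silenced in T47D cells in the absence of hormone, and the RNA of these cells was compared with that of cells given a control siRNA. The comparison rests on 4 of the 12 RNA-seq libraries of a series of 30 samples, chosen by their titles: 2 libraries labelled siCEBPA and untreated, and 2 labelled siControl and untreated. T47D is an established human luminal breast cancer line with abundant progesterone receptor, here at passages 18 to 20. Both groups were taken at the time labelled T0 after a short arrest, which the culture protocol describes as 4 hours in medium with charcoal-treated serum, and neither received an agonist. The only labelled difference between them is the siRNA. The sequences of the siRNAs, their number and the time since transfection are not given in the sources used here, so a change that one siRNA makes through another messenger cannot be told apart from a change through CEBPA. Another 4 libraries, with the same siRNAs and the progestin R5020 at 10 nM (time label T360, without a unit), gave the same comparison in cells that had hormone, and were used to see which changes recurred. Hormone and time label go together in these libraries and cannot be told apart.

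C/EBPα, the product of CEBPA, is a basic leucine zipper transcription factor. It binds DNA as a dimer with itself or with another C/EBP protein, and it is best known from myeloid cells, liver and fat, where it drives differentiation and holds back the cell cycle. Its relatives pair with ATF4, the transcription factor that cells make when amino acids run short or proteins misfold, and such pairs read a composite site called the C/EBP-ATF response element in genes for amino acid synthesis, amino acid transport and tRNA charging. The series title links C/EBPα to the restraint of growth by progestins, and the comparison here gives the state of the cells before hormone.

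Total counts were 68050942 and 148624099 in the siControl libraries and 62624949 and 57364785 in the siCEBPA libraries. Levels are given as CPM, read counts relative to the scaled library total. Pearson correlations of log2 CPM between replicates ran from 0.9983 to 0.9988 over the 4 siRNA groups. All 9 luminal markers were at 1 CPM or more in both groups, at a summed level of 8663 to 9134 CPM in siControl and 7522 to 7541 CPM in siCEBPA libraries. Markers of basal and myoepithelial cells summed to 51.5 to 52.8 and 49.2 to 49.8 CPM, and KRT5, the keratin of basal cells, had no count in either siControl library. Markers of fibroblasts, endothelium and blood summed to 67.1 to 74.1 and 73.2 to 76.8 CPM, of which the collagen gene COL1A1 alone made 65.3 and 67.3. The deepest library, siControl replicate 2, had 4.96% of its counts in mitochondrial genes, against 4.07% in siControl replicate 1 and 4.09% and 3.95% in siCEBPA libraries. Over 40 interferon-stimulated genes siCEBPA replicate 2 stood apart. Their summed level was 1825 and 1881 CPM in siControl, 2020 in siCEBPA replicate 1 and 3634 in siCEBPA replicate 2. Bulk RNA does not separate fewer cells of a type from less RNA per cell.

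CEBPA, the siRNA target, is a gene of a single exon at chr19:33299934-33302564 on the minus strand (hg38). It measured 47.5 and 54.2 CPM in the siControl libraries and 10.7 and 12.1 CPM in the siCEBPA libraries, so the groups did not overlap. The fall was 4.47-fold (log2 change -2.16 ± 0.07 SE; adjusted p = 2.75e-11, edgeR quasi-likelihood test with Benjamini-Hochberg adjustment over 18351 genes, as for every adjusted p and every call below). Around it, the divergent noncoding gene CEBPA-DT, which starts a short distance away on the plus strand, rose from 1.14 and 1.52 to 2.91 and 3.5 CPM (log2 change 1.23 ± 0.16 SE; adjusted p = 1.05e-05). Among the coding neighbours, RHPN2 fell by 0.29 on the log2 scale and LRP3 was not called (-0.25). GPATCH1, another coding neighbour, had a value of -0.18, whose call was lost, among other alternatives, when either siCEBPA library was left out (adjusted p = 0.0524 and 0.208). A gene without a symbol that is antisense to CEBPA (ENSG00000267727) was at or under 0.0927 CPM in every one of the 4 libraries.

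The change was broad. Of 18351 genes tested, 8558 (46.6%) differed at an adjusted p under 0.05, which is what "called" means throughout: 4153 (22.6%) were higher in siCEBPA cells and 4405 (24.0%) were lower. The share of higher genes among those called, 48.5%, was 65.3% where libraries were scaled by their totals alone (5597 higher and 2970 lower), as the median change over all genes then moved from 0.01 to 0.10 on the log2 scale. Most called changes were small. At 2-fold or more, 846 genes (4.61%) rose and 402 (2.19%) fell, so that 67.8% of these larger changes were rises. This excess lay among genes of lower abundance. With tested genes put into 5 equal groups by mean level, the least abundant group held 384 of these rises and 132 of the falls. The fourth group held 41 rises and 45 falls, and the most abundant group 22 and 33. Whether the pair of libraries in a group came from separate cultures is not stated, so the p-values rest on a spread that may be only technical.

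The 15 largest falls and the 15 largest rises were taken among genes with at least 5 CPM in one group. CHAC1, at chr15:40952962-40956519, encodes an enzyme that breaks down glutathione and is a classical target of ATF4. Its level was 20.1 and 23.9 CPM in siControl and 3.69 and 3.77 CPM in siCEBPA libraries, a 5.92-fold fall (-2.57 ± 0.10 SE on the log2 scale; adjusted p = 4.37e-11), and this was the largest fall of the 15. IMPA2, an inositol monophosphatase, fell from 17.4 and 17.3 to 4.06 and 3.14 CPM (log2 change -2.26 ± 0.10 SE; adjusted p = 9.78e-11). TIMP3, a secreted inhibitor of metalloproteinases, fell from 14.4 and 15.4 to 3.16 and 3.61 CPM, and UNC5B, a netrin receptor, from 23.2 and 30.4 to 6.12 and 6.75 CPM. EMC10, a subunit of the complex that inserts proteins into the endoplasmic reticulum membrane, was abundant at 99.2 and 98.8 CPM and fell to 25.9 and 24 CPM (log2 change -1.99 ± 0.06 SE; adjusted p = 3.46e-12). MRPL34, which encodes a mitochondrial ribosomal protein, and ABHD8 overlap on opposite strands at chr19:17292131-17310236, and both fell, by 4.77-fold and 4.73-fold. Counting used the read's strand, so the pair was counted separately. The other members of the 15 were TFF1, LCN2, GDF15, CEBPA itself, S100P, DBNDD1, TM4SF18-AS1 (a noncoding RNA) and TMEM154. In every one of the 15 the higher siCEBPA library lay below the lower siControl library, which the rule that chose them required.

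The 15 rises could enter through a level of 5 CPM in siCEBPA cells alone, and most were under that level in siControl cells. ZNF702P, a pseudogene of the zinc finger family, went from 3.45 and 3.42 to 18.2 and 18.6 CPM, a 5.37-fold rise. TRPM8, the cold-sensing ion channel, went from 1.87 and 1.74 to 9.58 and 9.56 CPM. KRTAP3-1, a keratin-associated protein gene, went from 1.32 and 1.32 to 6.48 and 5.99 CPM, and PALM3 rose 4.9-fold. GLYATL3, a glycine acyltransferase, was the most abundant of the 15 after the knockdown. It rose from 36.2 and 34.6 to 145 and 145 CPM (log2 change 2.04 ± 0.09 SE; adjusted p = 3.14e-08). PLCE1, a phospholipase C that Ras-type GTPases activate, rose from 6.95 and 7.19 to 28.5 and 31.4 CPM. The adhesion molecule NRCAM, the GABA receptor subunit GABRA3, the basement membrane collagen COL4A6 and the opioid growth factor receptor OGFR rose 4.42-fold, 3.86-fold, 3.54-fold and 3.5-fold. The other members were LHFPL6, LRRN2, NAALADL2, TRIM6 and ZNF678. As for the falls, the rule that chose them required that the libraries of the groups did not overlap. The zinc finger gene ZNF664 lay outside the 15 but was far more abundant, at 155 and 147 CPM in siControl and 531 and 515 CPM in siCEBPA libraries (log2 change 1.79 ± 0.05 SE; adjusted p = 1.19e-12).

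**Figure D1:**
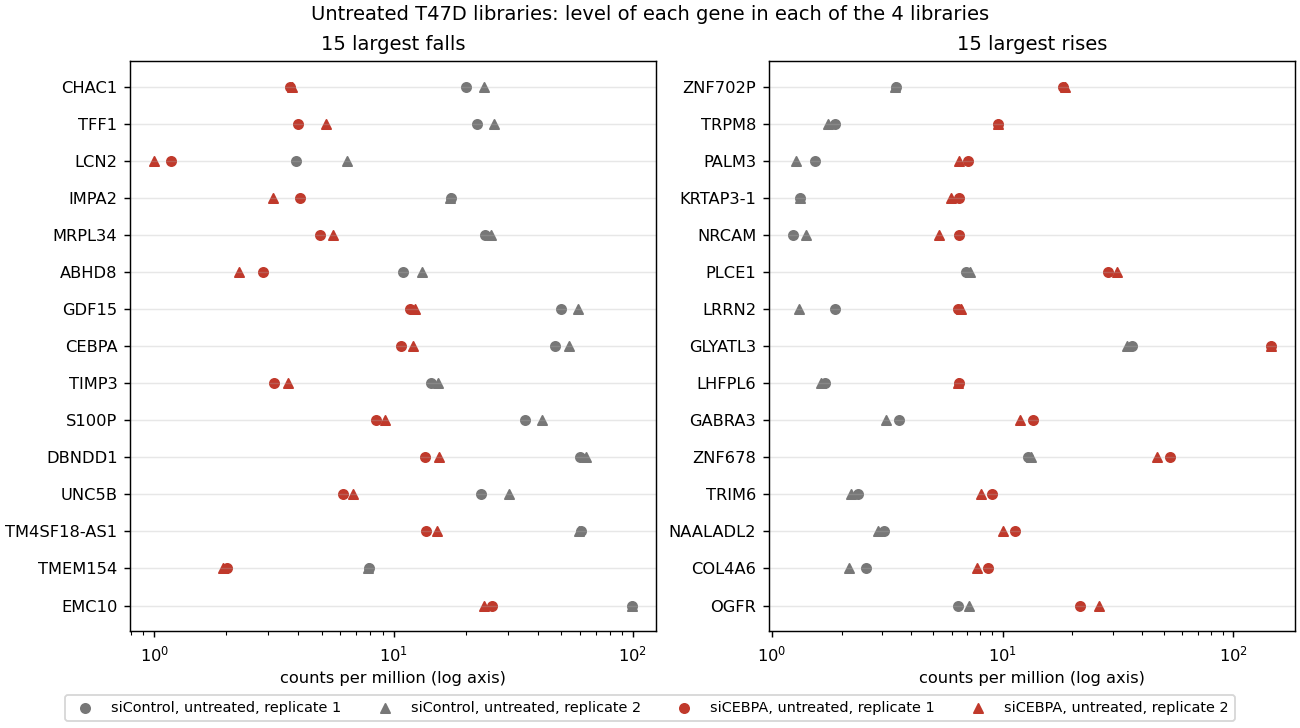
Level of the 15 largest falls (left) and the 15 largest rises (right) in each of the 4 untreated libraries, in CPM on a log axis; grey marks siControl and red siCEBPA, circles replicate 1 and triangles replicate 2. The groups do not overlap in any gene shown, which the rule that chose the genes required. CEBPA lies at 47.5 and 54.2 CPM in siControl and 10.7 and 12.1 CPM in siCEBPA.

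The other tested C/EBP genes fell together with CEBPA. Of 9 genes listed as C/EBP factors and Tribbles regulators, 7 were expressed enough to test, and all 7, CEBPA itself among them, fell, with a median log2 change of -0.73 against 0.01 over all genes tested. CEBPB, an activator with the same binding preference, went from 11.1 and 12.4 to 4.4 and 4.2 CPM (log2 change -1.45 ± 0.09 SE; adjusted p = 3.9e-09). CEBPD went from 3.05 and 4.41 to 1.66 and 1.46 CPM (-1.29 ± 0.24 SE; adjusted p = 0.00197), and CEBPG, a partner of ATF4, fell less (-0.41 ± 0.05 SE). DDIT3, the C/EBP-like factor of the stress response also called CHOP, fell by 0.73 on the log2 scale. The Tribbles pseudokinases TRIB1 and TRIB3, of which TRIB1 is known to send C/EBPα protein to degradation, fell by 0.36 and 0.67 on the log2 scale.

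The genes of the amino acid stress response were nearly all lower. Of 40 tested members of a list of ATF4-linked genes, 38 (95.0%) fell, none rose and 2 were not called, with a median log2 change of -0.66, while 24.0% of all tested genes fell. CEBPB, CEBPG, DDIT3 and TRIB3 stand in this list as well. Because the composite site read by C/EBP and ATF4 is the DNA element that this group is known for, its occurrences are shown here before the values. Promoter sequences came from RefSeq (GRCh38.p14) and run from 250 bases before the gene start to 50 after it. They were matched to 12326 (67.2%) of the tested genes. The letters TGATGCAA or TGATGAAA, searched on both strands, stood in 0.868% of these 12326 promoters (107), in 2.73% (7 of 256) of those of genes that fell at least 2-fold and in 0.758% (4 of 528) of those that rose at least 2-fold. They stood in 9.38% (3 of 32) of the amino acid stress promoters and in 37.5% (6 of 16) of those of the tRNA synthetases. The stretches below give 30 bases around the match, 5′ to 3′ on the gene's strand, with the matched letters in capitals; where the match is on the opposite strand its complement is seen. ASNS and CHAC1 are textbook targets of ATF4, and the others shown are tested members of the stress, synthetase and endoplasmic reticulum lists and of the 15 largest falls in which the letters were found. BCAT1 of the stress list held the letters too but was not among the tested genes. These 11 genes all fell, which says little of the letters. CHAC1 and S100P were among the largest falls by choice, and most members of the stress and synthetase lists fell. The same letters stood in promoters of further listed or named genes, among them FAXDC2, HK1 and RPS23, which fell, and BCL6, MYLK and ARID5B, which rose. ARID5B, named for its difference between hormone states, is shown last. The genes shown were chosen after their values were seen.
CHAC1: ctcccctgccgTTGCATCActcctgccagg
ASNS: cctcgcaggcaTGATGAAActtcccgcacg
SLC7A1: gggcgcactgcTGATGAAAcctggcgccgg
AARS1: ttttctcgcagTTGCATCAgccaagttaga
CARS1: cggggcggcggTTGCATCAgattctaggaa
IARS1: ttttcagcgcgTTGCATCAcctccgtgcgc
MARS1: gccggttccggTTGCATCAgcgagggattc
NARS1: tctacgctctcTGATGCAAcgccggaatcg
TARS1: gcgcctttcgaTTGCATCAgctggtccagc
HERPUD1: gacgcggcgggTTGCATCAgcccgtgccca
S100P: acaacgatgcaTTTCATCAgaactgagcac
ARID5B: ctgccaggaccTGATGCAAtccattcaagc

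In CHAC1 the stretch is chr15:40953251-40953280, and the element lies at -209 to -202 relative to the RefSeq start, counted with the start base as 0 and upstream bases negative. The annotation of the count files begins CHAC1 further upstream than RefSeq does. In ASNS, on the minus strand, the stretch is chr7:97872458-97872487 with the element at -68 to -61. In the synthetase genes the matches lay close to the start or further upstream: -187 to -180 in AARS1, -13 to -6 in IARS1, -4 to 3 in MARS1, -2 to 5 in CARS1, 2 to 9 in TARS1 and 14 to 21 in NARS1. The 250 bases upstream of CHAC1 (chr15:40953221-40953470) and of ASNS (chr7:97872409-97872658) show the elements in their setting.
CHAC1 upstream: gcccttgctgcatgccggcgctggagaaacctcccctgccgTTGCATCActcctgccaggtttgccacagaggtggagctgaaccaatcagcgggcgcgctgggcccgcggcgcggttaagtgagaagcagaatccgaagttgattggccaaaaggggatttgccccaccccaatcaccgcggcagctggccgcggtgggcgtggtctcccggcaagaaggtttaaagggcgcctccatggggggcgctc
ASNS upstream: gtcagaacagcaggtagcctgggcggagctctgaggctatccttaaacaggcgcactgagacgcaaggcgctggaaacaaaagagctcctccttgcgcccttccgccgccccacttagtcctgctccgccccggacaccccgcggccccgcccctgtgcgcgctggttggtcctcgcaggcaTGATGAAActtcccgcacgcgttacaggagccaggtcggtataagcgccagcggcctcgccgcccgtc

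A second site, the C/EBP palindrome TTGCGCAA, stood in 24 of the 12326 promoters (0.195%). It stood in 10 of 3411 promoters of all genes that fell (0.293%), in 3 of 3007 of all that rose (0.0998%) and in none of the 256 or 528 promoters of the larger falls and rises, numbers too small to compare. The response element stood in 43 of the 3411 (1.26%) and 20 of the 3007 (0.665%). A match is a description of letters in this window, and binding was not examined here.

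Among the regulators of the stress response, ATF4 itself fell from 357 and 403 to 218 and 225 CPM (log2 change -0.78 ± 0.05 SE; adjusted p = 5.84e-09). DDIT4 and SESN2, both known as brakes on mTORC1, the kinase complex that promotes growth, fell by 1.45 and 0.91 on the log2 scale, and EIF4EBP1, the inhibitor of cap-dependent translation that mTORC1 controls, by 1.16. PPP1R15A, which encodes the phosphatase subunit that ends the stress response, was not called (0.01 ± 0.07 SE). The amino acid transporters were among the most abundant members. SLC7A5, the light chain of the large neutral amino acid transporter, measured 1282 and 1462 CPM in siControl and 499 and 534 CPM in siCEBPA libraries, and its heavy chain SLC3A2 went from 456 and 514 to 225 and 229 CPM. Their log2 changes were -1.41 ± 0.08 and -1.10 ± 0.06 SE (adjusted p = 6.54e-07 and 2.38e-09). The glycine transporter SLC6A9 fell by 1.17, the cystine transporter SLC7A11 by 0.42 and the glutamine transporter SLC1A5 by 0.25 on the log2 scale.

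Most biosynthetic enzymes fell by less than 2-fold. ASNS, asparagine synthetase, went from 173 and 191 to 87.3 and 99.3 CPM (-0.96 ± 0.07 SE; adjusted p = 6.38e-07). The serine pathway enzymes PHGDH, PSAT1 and PSPH fell by 0.60, 0.75 and 0.65 on the log2 scale, and the mitochondrial folate enzymes SHMT2, MTHFD2 and ALDH1L2 by 0.83, 0.49 and 0.71. PYCR1 of proline synthesis and GPT2, an alanine transaminase, fell by 0.46 and 0.42. CTH, the enzyme that makes cysteine from cystathionine, was not called (-0.28 ± 0.17 SE).

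The cytosolic tRNA synthetases, the enzymes that load amino acids onto tRNAs, mostly fell. Of 20 tested, 14 (70.0%) fell, 1 rose and 5 were not called (median log2 change -0.38). The deepest falls were those of the glycyl enzyme GARS1, from 664 and 709 to 274 and 286 CPM (-1.30 ± 0.04 SE; adjusted p = 6.62e-12), the tryptophanyl enzyme WARS1, from 281 and 318 to 133 and 142 CPM, and the threonyl enzyme TARS1, from 217 and 225 to 118 and 122 CPM. YARS1, SARS1, AARS1, MARS1 and IARS1 fell by 0.78, 0.67, 0.52, 0.51 and 0.50 on the log2 scale. Values of members not called were -0.02 for HARS1, 0.01 for LARS1, -0.07 for RARS1 and -0.11 for VARS1. KARS1, the lysyl enzyme, rose by 0.24. A promoter sequence was at hand for 16 of the 20, and 6 of these held the response element. All 6 fell, but so did most of the 20, and whether the element has a part was not tested.

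**Figure D2:**
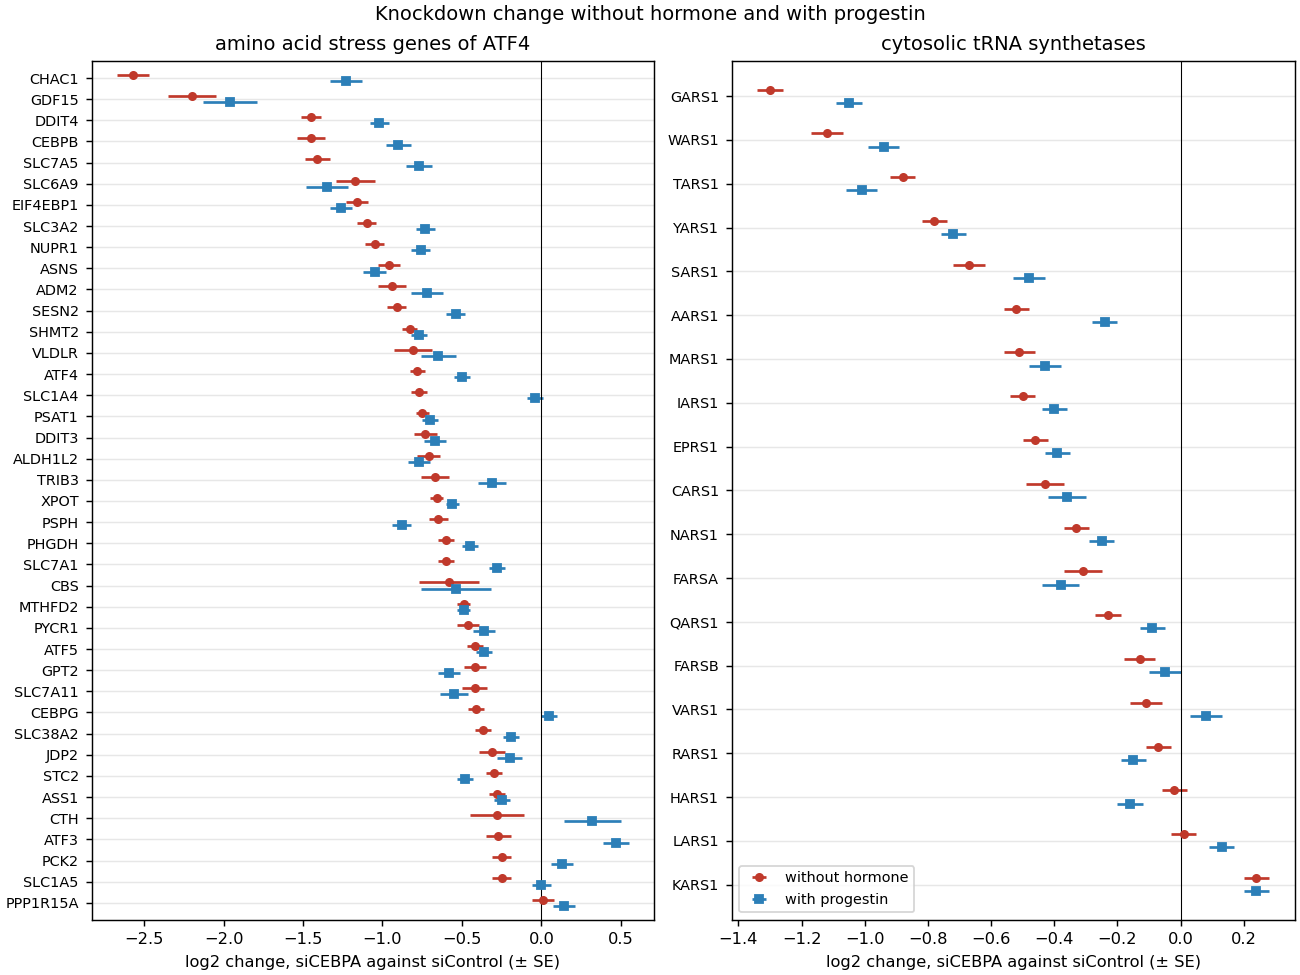
Log2 change of siCEBPA against siControl for the tested members of the amino acid stress list (left) and 19 of the 20 tested cytosolic tRNA synthetases (right); red circles are cells without hormone, blue squares cells with progestin, and bars are 1 standard error. On the left the values without hormone run from -2.57 for CHAC1 to 0.01 for PPP1R15A, and on the right from -1.30 for GARS1 to 0.24 for KARS1.

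Genes for folding in the endoplasmic reticulum did not share one direction. Of 29 tested, 13 (44.8%) fell, 7 (24.1%) rose and 9 were not called (median -0.15). Over all tested genes 24.0% fell and 22.6% rose, so the share of rises was near that of all. HERPUD1, which helps remove misfolded proteins, fell from 62.6 and 70.6 to 36.6 and 35.1 CPM (-0.90 ± 0.06 SE), and the transcription factor XBP1 and the chaperone HSPA5 fell by 0.54 and 0.47 on the log2 scale. The chaperone CALR rose from 692 and 708 to 1060 and 1051 CPM and the disulfide oxidase ERO1A from 69.2 and 64.8 to 114 and 109 CPM, while its relative ERO1B fell by 0.66 on the log2 scale.

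Genes for ribosomal proteins formed another group of falls, each under 2-fold. Of 82 tested cytosolic ribosomal protein genes, 76 (92.7%) fell, none rose and 6 were not called. The median log2 change was -0.43, and the summed level went from 43543 and 43961 CPM in siControl to 33591 and 31479 CPM in siCEBPA libraries. RPL4, at a mean of 1813 ± 0.593 (SD, n = 2) CPM in siControl and 1159 ± 40 (SD, n = 2) in siCEBPA cells, changed by -0.65 ± 0.04 SE on the log2 scale (adjusted p = 2.58e-09). The members not called were RPL10L, RPL11, RPL36A, RPL39L, RPS26 and RPS27L, and RPL11 measured 315 and 308 CPM in siControl and 350 and 324 in siCEBPA libraries. These genes have many near-identical processed copies in the genome, so reads can be lost or shared, and single members are uncertain. Most are short: with tested genes put into 5 equal groups by exonic length, 46 of the 82 were in the 2 shortest groups, where protein-coding genes had medians of -0.09 and -0.08. Against the median of protein-coding genes in the same length group, the list's median difference was -0.37. Whether transcript length has a part in these falls was not tested.

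Most genes of ribosome assembly fell as well. Of 32 tested genes for MYC and ribosome biogenesis, 28 (87.5%) fell, 1 rose and 3 were not called (median -0.26). MYC itself fell by 0.28 on the log2 scale (SE 0.05; adjusted p = 0.000542), a call that was lost in the fit of all 12 RNA-seq libraries (adjusted p = 0.0879). Nucleolin (NCL) fell by 0.25, fibrillarin (FBL) by 0.37 and the assembly factor RRS1 by 0.77. NOLC1, a nucleolar chaperone of small ribonucleoproteins, was the exception, rising from 205 and 195 to 360 and 333 CPM (0.79 ± 0.04 SE; adjusted p = 1.15e-09). Of 16 host genes of small nucleolar RNAs and nuclear RNAs, 9 fell, among them ZFAS1 and GAS5 (-0.78 and -0.65), 1 rose (TUG1, 0.21), and MALAT1 (0.21) and NEAT1 (0.25) were not called. Of 78 mitochondrial ribosomal protein genes, 45 fell and 3 (MRPL22, MRPS25 and MRPS34) rose (median -0.18); the deepest falls were those of MRPL34 (-2.25) and MRPS2 (-0.90). Scaled by totals, 25 of the 78 fell and 11 rose. Of the 13 messenger RNAs encoded in mitochondrial DNA, 4 fell, 1 rose and 8 were not called. None of the 4 falls was called with upper quartile scaling or with scaling by totals. The summed level of the 13 was 32535 and 40257 CPM in siControl and 31608 and 29429 CPM in siCEBPA libraries. The siControl libraries thus differed from each other more than siControl replicate 1 did from siCEBPA replicate 1.

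The antioxidant genes under the factor NRF2 fell or were not called. Of 27 tested, 21 (77.8%) fell, none rose and 6 were not called (median -0.43). NQO1, a quinone reductase, went from 531 and 536 to 205 and 201 CPM (-1.39 ± 0.04 SE; adjusted p = 1.19e-12). FTH1, the heavy chain of the iron store ferritin, went from 722 and 787 to 377 and 354 CPM, and the light chain FTL fell by 0.74 on the log2 scale. GPX4, which removes lipid peroxides, fell from 125 and 146 to 55.7 and 58.4 CPM (-1.25 ± 0.10 SE; adjusted p = 1.05e-05). NFE2L2, the gene of NRF2, fell by 0.46, and TXNRD1, a thioredoxin reductase, by 0.62 on the log2 scale. Of 7 tested genes for metallothioneins and zinc handling, MT1F, MT1X and MT2A fell (-0.66, -1.02 and -0.42; the call of MT1F was lost without siControl replicate 2, adjusted p = 0.0518), and the zinc exporter SLC30A1 and the metal-sensing factor MTF1 rose (0.65 and 0.30).

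Of the glycolysis genes more fell than rose, and of the cholesterol genes more rose than fell. Of 33 genes of glycolysis and the hypoxia response, 24 (72.7%) fell and 5 rose (median -0.21), and scaled by totals 15 fell and 6 rose. The glucose transporter SLC2A1, hexokinase HK2 and the phosphofructokinase activator PFKFB3 fell by 0.58, 0.69 and 0.70 on the log2 scale, and the blood vessel growth factor VEGFA from 37.4 and 42.3 to 16.7 and 19.4 CPM (-1.15 ± 0.08 SE; adjusted p = 2.16e-08). PFKL, the liver-type phosphofructokinase, rose (0.38). Of 28 genes of cholesterol synthesis and uptake, 12 (42.9%) rose and 4 fell (median 0.12), and scaled by totals 16 rose and 2 fell. The SREBP regulator INSIG1 rose from 88.2 and 84.1 to 151 and 129 CPM, and the mevalonate enzymes MVK, PMVK and MVD by 0.49, 0.44 and 0.40 on the log2 scale. Of 28 fatty acid and fat storage genes, 10 (35.7%) fell and 8 (28.6%) rose, against 24.0% and 22.6% of all tested genes. Members of the list included the lipase PNPLA2 at -0.87 and the acyl-CoA ligase ACSL4 at 1.18. The median of that list, -0.01, was 0.09 when libraries were scaled by their totals alone.

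Genes for secreted proteins of mucosal and mammary epithelium included several of the deepest falls. Of 25 tested, 12 (48.0%) fell, 3 rose and 10 were not called (median -0.45), and 7 of the falls were at least 2-fold. SLPI, an inhibitor of leukocyte protease, was at 3.45 and 4.01 CPM in siControl and 0.324 and 0.38 CPM in siCEBPA libraries (-3.42 ± 0.19 SE on the log2 scale; adjusted p = 8.7e-10). S100P, a calcium-binding protein, went from 35.6 and 41.9 to 8.48 and 9.2 CPM and the lipid carrier AZGP1 from 107 and 121 to 48 and 52.7 CPM. AGR2, a disulfide isomerase of mucus-making cells, was the most abundant of those named and went from 1364 and 1285 to 846 and 831 CPM (-0.66 ± 0.04 SE). Not every secreted gene fell: CLU, the extracellular chaperone clusterin, rose from 382 and 399 to 748 and 727 CPM (0.92 ± 0.04 SE; adjusted p = 2.06e-10), and TFF3, a trefoil peptide like TFF1, rose by 0.50 on the log2 scale where TFF1 changed by -2.41.

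**Figure D3:**
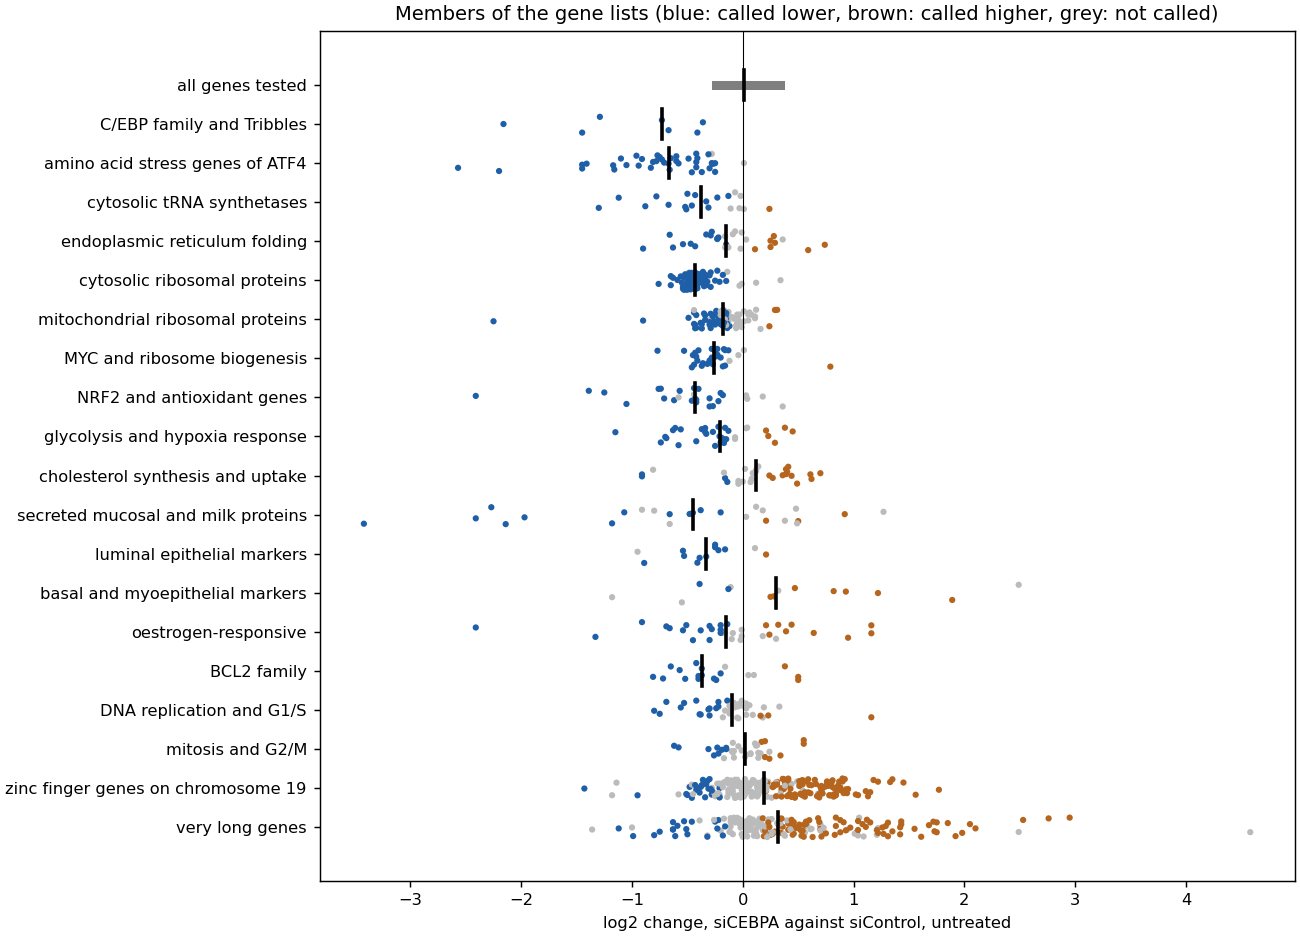
Log2 change of siCEBPA against siControl without hormone for each tested member of 19 gene lists; blue points were called lower, brown called higher and grey not called, black bars mark medians, and the grey band of the top row is the interquartile range of all genes tested. The amino acid stress list (median -0.66) and the ribosomal protein list (-0.43) lie almost wholly left of 0, and the very long genes (0.32) mostly right of it.

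Of 13 luminal epithelial markers, 10 fell, each by less than 2-fold, and 1 rose. That 1 was the mucin MUC1 (0.21), whose call was lost when either siCEBPA library or siControl replicate 1 was left out (adjusted p = 0.104, 0.0616 and 0.148). The keratins KRT8 and KRT19 fell by 0.33 and 0.39 on the log2 scale, E-cadherin (CDH1) by 0.22 and the claudin CLDN7 by 0.89. Of 14 tested basal markers, 7 rose, 2 fell and 5 were not called, and DESeq2 called 5 higher and 1 lower. P-cadherin (CDH3) rose by 0.82 and the laminin chain LAMB3 by 1.22, from 2.26 and 2.36 to 5.25 and 5.57 CPM. ACTA2 (-0.39) and the laminin chain LAMA3 (-0.13) fell. The keratins KRT5 (2.49), KRT15 (-0.11), KRT17 (-0.55) and KRT6A (-1.18) were not called. DESeq2 did not call the rise of MYLK (0.28). Of 11 tested markers of fibroblasts, endothelium and blood, 4 rose and none fell, and the median level of the 11 in siControl cells was 0.273 CPM. Of 33 adhesion and junction genes, 13 (39.4%) fell and 11 (33.3%) rose, against 24.0% and 22.6% of all tested genes. Tight junction members OCLN and TJP1 fell (-0.85 and -0.70), as did the plaque proteins JUP and DSP (-0.72 and -0.55), while PERP, a desmosomal membrane protein and p53 target, rose from 35.9 and 34.9 to 117 and 109 CPM (1.68 ± 0.06 SE; adjusted p = 2.36e-11) and the integrin ITGB1 by 0.43.

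Of 19 steroid receptors and luminal factors, 8 were not called. ESR1, the oestrogen receptor, was at 158 and 148 CPM in siControl and 164 and 155 CPM in siCEBPA libraries and was not called (0.06 ± 0.04 SE; adjusted p = 0.265), and neither were the pioneer factor FOXA1 (-0.02) and GATA3 (0.05). PGR, the progesterone receptor, fell slightly, from 984 and 970 to 855 and 844 CPM (-0.20 ± 0.04 SE; adjusted p = 0.000312). Of the 19, 7 (36.8%) rose, among them the receptors NR3C1 and NR3C2 (0.37 and 0.63) and MYB (0.44), and 4 (21.1%) fell. Over all tested genes 22.6% rose and 24.0% fell, so the share of falls was near that of all. Of 34 oestrogen-responsive genes, 17 (50%) fell and 9 (26.5%) rose, the share of rises being near that of all tested genes. Those that fell included TFF1, AREG (-0.69) and CCND1 (-0.38), and those that rose included the receptor kinase RET, from 5.35 and 6.3 to 13.5 and 12.7 CPM, and the binding protein IGFBP4, from 412 and 454 to 822 and 848 CPM. Of 30 genes that progestins are known to induce, here without hormone, 11 (36.7%) fell and 9 (30%) rose. IRS2 (-0.92), SGK1 (-0.79), NDRG1 (-0.74) and STAT5A (-0.72) were lower, and the tissue factor gene F3 (0.97) and FKBP5 (0.47) higher. The list's median of -0.05 was 0.05 when libraries were scaled by their totals alone.

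Growth factor genes moved in both directions, as did tested genes at large, of which 22.6% were higher and 24.0% lower. Of 18 genes for epidermal growth factor ligands and their receptors, 8 (44.4%) rose and 6 (33.3%) fell. The receptor ERBB4 (0.88) and the ligand TGFA (0.59) rose, and AREG and ERBB3 (-0.25) fell. Of 18 insulin-like growth factor genes, 6 (33.3%) rose and 4 (22.2%) fell, the share of falls being near that of all tested genes. IGFBP5, which binds the growth factors, was among the most abundant messengers and rose from 2112 and 2272 to 3504 and 3745 CPM (0.73 ± 0.04 SE; adjusted p = 3.52e-09), whereas the receptors IGF1R and INSR fell (-0.51 and -0.40). Of 25 genes of TGF-beta and BMP signalling, 11 (44.0%) rose and 6 (24%) fell, the latter again near the share of all tested genes. The co-receptor TGFBR3 changed by 1.43, the receptor BMPR2 by 0.62 and the inhibitor SMAD6 by -0.59. Of 39 immediate early and ERK feedback genes, 17 (43.6%) fell and 9 (23.1%) rose, the share of rises being near that of all tested genes. The AP-1 member JUNB went from 23 and 30.2 to 11 and 11.2 CPM and JUND from 24.4 and 27.2 to 10.9 and 8.84 CPM. The ERK pathway inhibitors SPRY1 and SPRY4 fell (-0.80 and -0.68), and the matrix protein gene CCN1 rose from 32 and 28.3 to 69.8 and 67.3 CPM.

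Of 42 replication and G1/S genes, 15 (35.7%) fell and 3 (7.14%) rose (median -0.10), and 24 were not called, a share close to the 53.4% of all tested genes that were not called. Scaled by totals, 11 fell and 7 rose. CCNE1, cyclin E1, went from 12.4 and 11.5 to 7.4 and 6.21 CPM (-0.80 ± 0.09 SE), and CDK6, a kinase of G1, from 4.75 and 4.5 to 9.96 and 10.6 CPM (1.16 ± 0.08 SE; adjusted p = 1.57e-08), a rise. PCNA (-0.08) and MCM3 (-0.08) were not called. Of 35 mitotic genes, 9 (25.7%) fell and 7 (20.0%) rose, shares near those of all tested genes (24.0% and 22.6%). With upper quartile scaling 6 fell and 9 rose, and scaled by totals 4 fell and 13 rose, so the balance turned with the scaling. The kinase PLK1 had a value of -0.62 and the spindle motor CENPE one of 0.55. Of 26 inhibitors of proliferation, 13 (50%) fell and 5 (19.2%) rose, the share of rises being near that of all tested genes. CDKN1A, the p21 inhibitor of cyclin-dependent kinases, fell from 208 and 223 to 133 and 131 CPM (-0.70 ± 0.04 SE; adjusted p = 2.71e-09), and GADD45A, a stress and growth arrest gene, from 5.68 and 6.56 to 2.72 and 2.6 CPM, while BTG2 rose (0.48). Of 28 p53 targets, 13 (46.4%) fell and 5 (17.9%) rose. PLK2, at 495 and 489 CPM in siControl, was at 247 and 253 CPM in siCEBPA libraries, and MDM2 was not called (-0.06).

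In the BCL2 family, which sets the threshold for apoptosis, 13 of 19 tested members fell and 3 rose (median -0.37). Among those that fell were the effector BAK1 (-0.40) and the BH3-only members BMF (-0.81), BBC3 (-0.72), BIK (-0.65) and PMAIP1 (-0.40), which promote cell death, with BMF going from 49.6 and 46.1 to 27.6 and 26.8 CPM. BCL2L1 and BCL2L2, which protect cells, rose (0.50 and 0.38), as did the BH3-only member BID (0.50), while BCL2 (-0.16) and MCL1 (0.05) were not called.

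The interferon-stimulated genes had a high median, 0.50, but only 3 of 40 were called higher (IFI44L, MX2 and SAMD9) and 2 lower (ISG20 and IRF1). The siCEBPA libraries differed from each other over these genes, as the sums above show. IFI6 was at 30.8 and 47 CPM in siControl and at 50.2 and 110 CPM in siCEBPA libraries, so that its log2 change was 1.03 ± 0.83 SE and it was not called (adjusted p = 0.384). Without siCEBPA replicate 2, 2 members were called higher and 4 lower, and without siCEBPA replicate 1, 12 were called higher. The call of IFI44L was lost without siCEBPA replicate 2 (adjusted p = 0.0915), and those of MX2 and SAMD9 without siControl replicate 2 (adjusted p = 0.0551 and 0.0936). ISG20, an exonuclease, fell in both siCEBPA libraries, from 9.99 and 11 to 3.37 and 4.45 CPM (-1.43 ± 0.12 SE; adjusted p = 1.34e-07).

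Of 33 tested chromatin factors, 10 (30.3%) rose and 10 (30.3%) fell, against 22.6% and 24.0% of all tested genes, and scaled by totals 13 rose and 7 fell. RCOR1, a corepressor that partners the demethylase LSD1, fell from 94.2 and 96.9 to 45.2 and 43.4 CPM (-1.11 ± 0.05 SE; adjusted p = 4.4e-11), and the insulator factor CTCF from 128 and 127 to 75.6 and 71.9 CPM (-0.79 ± 0.04 SE; adjusted p = 9.84e-10). HDAC1, a histone deacetylase, rose from 93.4 and 90 to 160 and 152 CPM (0.77 ± 0.05 SE; adjusted p = 3.09e-09), while HDAC2 fell (-0.39).

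The rises had a different make-up from the falls. Long noncoding RNAs rose more often than they fell: of 1423 tested, 424 (29.8%) were higher and 72 (5.06%) lower, with a median log2 change of 0.39, whereas of 13792 protein-coding genes 3282 (23.8%) were higher and 4116 (29.8%) lower (median -0.03). Among genes of low abundance, too, more rose than fell. With tested genes put into 5 equal groups by mean level, 12% of the least abundant group were higher, the smallest share of the 5 groups, and 3.90% lower (median 0.24), and in the most abundant group 20.1% were higher and 44.0% lower (median -0.09). Noncoding RNAs are mostly of low abundance, and the parts of type and abundance were not tested apart.

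**Figure D4:**
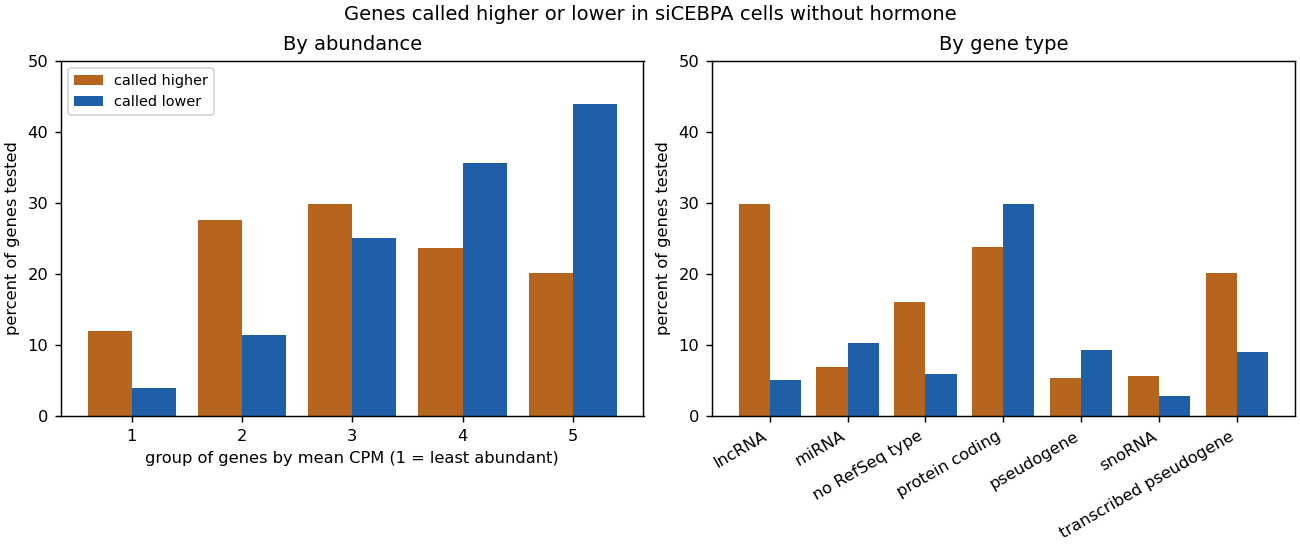
Percent of tested genes called higher (brown) or lower (blue) in siCEBPA cells without hormone, by 5 equal groups of mean level (left, group 1 least abundant) and by RefSeq gene type (right). Lower calls grow from 3.90% to 44.0% across the groups, and among long noncoding RNAs 29.8% were higher and 5.06% lower.

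Among zinc finger genes and very long genes, too, more rose than fell. Of 231 tested ZNF genes on chromosome 19, where many genes of this family stand in clusters, 98 (42.4%) rose and 24 (10.4%) fell (median 0.19). Of 222 on other chromosomes 87 (39.2%) rose and 48 (21.6%) fell (median 0.09). Over all tested genes 22.6% rose and 24.0% fell, so the share of falls on other chromosomes was near that of all. ZNF681 went from 3.37 and 3.25 to 11.5 and 11 CPM and ZNF616 from 4.32 and 4.31 to 10.8 and 11.3 CPM, and ZNF652 on chromosome 17 from 43.1 and 42.9 to 81.6 and 86.4 CPM. Of 353 genes spanning 500000 bases or more, 199 were tested, and of these 83 (41.7%) rose and 19 (9.55%) fell (median 0.32). LPP, a focal adhesion protein gene of chromosome 3, rose from 69.2 and 68 to 186 and 182 CPM (2.68-fold; adjusted p = 1.84e-11), SLC24A3, a potassium-dependent sodium and calcium exchanger, from 22.1 and 24.4 to 50.8 and 52.6 CPM, and CADPS2, a factor of vesicle release, fell from 21.4 and 22.4 to 10.4 and 9.87 CPM. The median level in siControl cells was 7.42 CPM for the ZNF genes of chromosome 19 and 3.11 CPM for the very long genes, against 11.4 CPM over all tested genes, and the part of abundance was not tested.

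The same knockdown with progestin set 4 other libraries against each other. They stood in the same fit, so the 2 comparisons shared the filter, the scaling and the estimate of spread. With progestin 8192 genes (44.6%) were called, 4133 higher (22.5%) and 4059 lower (22.1%). Of these, 865 (4.71%) and 344 (1.87%) changed at least 2-fold. Of the 4153 genes higher without hormone, 2863 were also called higher with progestin (68.9% of the first list and 69.3% of the second), and of the 4405 lower genes 3065 were also called lower (69.6% and 75.5%). The sign was the same in 93.4% of the higher and 91.9% of the lower genes, and 69 and 104 were called in the opposite direction. Across the 18351 genes the log2 changes in the presence and absence of progestin correlated at 0.639 (Pearson) and 0.689 (Spearman), and the genes are not independent replicates. The progestin libraries shared the siRNAs with the untreated ones.

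Group by group, the genes that fell in both states were 31 of the 40 amino acid stress genes, 75 of the 82 ribosomal protein genes, 21 of the 27 antioxidant genes, 21 of the 33 glycolysis and hypoxia genes and 22 of the 32 ribosome biogenesis genes. Of all 18351 tested genes, 16.7% fell in both states. EMC10 changed by -2.12 and TFF1 by -2.40 with progestin, close to the values without it (-1.99 and -2.41). NQO1 changed by -1.49, ZNF664 by 1.60 and LPP by 1.29.

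A difference between the 2 states, tested as the interaction in the same fit, was called for 1329 of 18351 genes (7.24%), of which 768 (4.19%) were positive (with progestin minus without) and 561 (3.06%) negative. At least 2-fold differences were called for 87 (0.474%) and 42 (0.229%) genes. Of the 8558 genes called without hormone 966 (11.3%) had one. In 372 of them the change was smaller with the same sign with progestin, and in 241 it was larger with the same sign. In 353 the value with progestin had the opposite sign, whether or not that value was called. Of the 1248 genes called at 2-fold or more, 140 (11.2%) had a called difference. CHAC1 was one of the 140: its change with progestin was -1.23 ± 0.10 SE, so that the difference was 1.33 ± 0.15 SE (adjusted p = 4.47e-05), and its level in siControl cells was lower with progestin, at 11.6 and 13 CPM. S100P (-2.14 without and -0.84 with progestin; adjusted p of the difference = 2.74e-05) and UNC5B (-2.07 and -0.64; 0.00185) also had called differences. CEBPA itself fell by less with progestin (-1.76 against -2.16; adjusted p of the difference = 0.0209, and between 0.0507 and 0.115 in the 5 fits without 1 library that lost the call), at levels of 204 and 202 CPM in siControl and 57.6 and 61.9 CPM in siCEBPA libraries, above the siControl level without hormone.

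The 6 largest positive differences, with progestin minus without, were FAXDC2, GABRQ, STEAP4, PKP1, RASD2 and RHOBTB1. STEAP4, a metalloreductase that handles iron and copper, fell from 11.1 and 10.9 to 3.47 and 3.56 CPM without hormone (-1.64 ± 0.10 SE) and was at 11.1 and 10.1 CPM in siControl and 14 and 12.1 CPM in siCEBPA libraries with progestin (0.30 ± 0.09 SE), a difference of 1.94 ± 0.14 SE (adjusted p = 7.1e-07). PKP1, a plakophilin of desmosomes, was near 1 CPM without hormone, where it fell from 1.03 and 0.927 to 0.456 and 0.57 CPM, and rose with progestin, from 17.4 and 17.9 to 34.5 and 36.2 CPM. RHOBTB1 went from 16.8 and 16.5 to 13.4 and 13.4 CPM without hormone and from 4.35 and 4.91 to 10.3 and 10.5 CPM with it. The differences were 1.87 ± 0.38 SE in FAXDC2, 2.04 ± 0.24 in GABRQ, 1.91 ± 0.18 in PKP1, 1.74 ± 0.15 in RASD2 and 1.49 ± 0.12 in RHOBTB1. FAXDC2 was at 0.0736 and 0.19 CPM in siCEBPA cells without hormone, and its difference was 1.33 without siCEBPA replicate 1 and no longer called (adjusted p = 0.0856).

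The 6 largest negative differences were NES, ARID5B, PKP2, DUSP6, EFNA3 and DUSP1. ARID5B, of the ARID family, rose without hormone, from 14.1 and 14.2 to 28.6 and 28.8 CPM (1.02 ± 0.07 SE, adjusted p = 8.47e-09). With progestin it fell, from 9.06 and 9.52 to 6.12 and 5.87 CPM (-0.63 ± 0.08 SE), a difference of -1.65 ± 0.11 SE (adjusted p = 3.18e-07). PKP2, the other plakophilin with a large difference, moved opposite to PKP1: it rose from 38.4 and 37 to 58.2 and 58.2 CPM without hormone and fell from 52.2 and 51.1 to 27.6 and 29.1 CPM with progestin. EFNA3, a ligand of Eph receptors, rose from 11.3 and 11.5 to 20.5 and 20 CPM and fell from 114 and 111 to 74.2 and 82.2 CPM with progestin. DUSP1 and DUSP6 encode phosphatases that switch off MAP kinases. DUSP1 measured 8.85 and 8.47 CPM in siControl and 9.93 and 9.96 CPM in siCEBPA cells without hormone, and DUSP6 went from 33.5 and 35.8 to 29 and 28.1 CPM. Their log2 values were 0.20 and -0.28 without hormone and -1.13 and -1.74 with progestin. Their calls without hormone were lost when siControl replicate 2 was left out (adjusted p = 0.175 and 0.122). NES, the intermediate filament nestin, changed by 1.29 ± 0.17 SE without and -1.42 ± 0.12 SE with progestin.

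**Figure D5:**
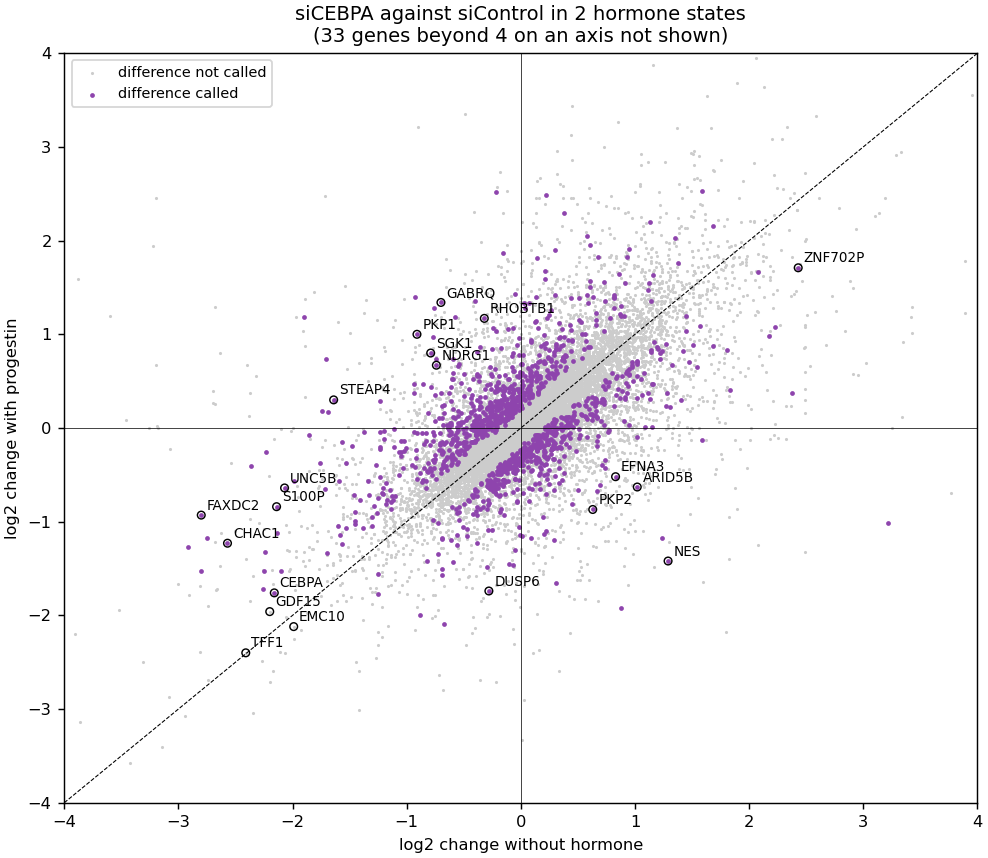
Log2 change of siCEBPA against siControl without hormone (x axis) and with progestin (y axis) for the tested genes; purple points had a called difference between the states, grey points had none, the dashed line marks equal change, and circled genes are named. TFF1 and EMC10 lie near the line, whereas STEAP4, PKP1, GABRQ, SGK1 and NDRG1 lie above it and ARID5B, PKP2, EFNA3 and NES below it.

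Among the 19 steroid receptors and luminal factors, 13 were called higher and 3 lower with progestin. ESR1 changed by 0.34, FOXA1 by 0.41, and PGR, which fell without hormone, by 0.49 (adjusted p of the difference = 0.0125, 0.000586 and 1.44e-06; that of ESR1 was 0.0501 to 0.08 in the 3 fits without 1 library that lost the call). GATA3, not called without hormone, had a value of 0.02 with progestin, and TBX3 went from -0.01 (not called) to -0.40. SGK1, a kinase of sodium transport, changed by -0.79 without and 0.80 with progestin, and NDRG1 by -0.74 and 0.67 (adjusted p of the difference = 0.000235 and 1.44e-06).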

How the data were processed

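RNA-seq (stranded, poly(A)-selected libraries, per the labels' protocols) was measured in the libraries described above. The authors deposited whole-number read counts per gene for each library. Per the file headers these were made with featureCounts 1.5.1 on paired reads, counted on the reverse strand over GENCODE 24 and hg38 coordinates, and the submitters' processing notes name STAR and Trimmomatic.

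From these counts, 1 edgeR 4.0.16 fit (R 4.3.3; filterByExpr, TMM, robust quasi-likelihood) was made over the 8 siRNA libraries in 4 groups of 2, and p-values were Benjamini-Hochberg adjusted over 18351 genes. CPM use the TMM-scaled totals, and a standard error is the log2 change divided by the root of the F statistic. The fit was also run on simulated counts in which 200 genes changed, equally up and down, far fewer than were called here. That run does not test the fit under a change as broad as the one in these data.

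Genes named were CEBPA and its neighbours, the 15 largest falls and rises (5 CPM or more in 1 group, libraries not overlapping), the 6 largest differences each way, and members of the 36 gene lists. The members of the comparison and the lists were chosen with earlier results of these data known. Ribosomal protein, zinc finger and very long gene lists were taken by symbol, chromosome or span. Gene types came from RefSeq. Alternatives were DESeq2 1.42.0, other scalings and filters, other sets of libraries, a thinned deep library, a test against a fold change of 1.2 (glmTreat), a replicate block and leaving out each library. ChIP samples and the other RNA-seq libraries were not used here beyond the fit of all 12. Values of a few list members are not reported here.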

Additional observations from a re-analysis of the deposited data

Results flagged for a closer look

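For 67 of the 228 genes named above that had a value, the knockdown effect differed between the 2 states at an adjusted p under 0.05 (interaction in the edgeR quasi-likelihood fit). This count is no measure of how common such differences are, since 12 of the genes were named for the largest differences and 30 for the largest changes. Each difference is the log2 change with progestin minus that without hormone. A positive difference after a fall means a smaller fall or a positive value with progestin, which need not have been called. Hormone and time label cannot be told apart in it.

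Among genes that fell without hormone and had a smaller negative value with progestin, the difference was 0.275 in AARS1, 0.919 in ABHD8, 0.275 in ATF4, 0.344 in BMF, 0.261 in CDKN1A, 0.395 in CEBPA, 0.554 in CEBPB, 1.333 in CHAC1, 0.336 in CTCF and 0.567 in DBNDD1. In more of these genes it was 0.424 in DDIT4, 0.187 in DSP, 1.871 in FAXDC2, 0.569 in GADD45A, 0.249 in GARS1, 0.426 in HK2, 0.539 in IMPA2, 0.726 in MRPL34, 0.424 in OCLN and 0.427 in RRS1. In others of this kind it was 1.305 in S100P, 0.375 in SESN2, 0.362 in SLC3A2, 0.321 in SLC7A1, 0.642 in SLC7A5, 1.019 in TIMP3, 0.217 in TJP1 and 1.423 in UNC5B. Among genes that fell without hormone and had a larger negative value with progestin, the difference was -1.454 in DUSP6, -0.383 in ERBB3, -0.242 in HK1, -0.343 in RHPN2 and -0.836 in SMAD6. Among genes that fell without hormone and had a positive value with progestin, the difference was 0.913 in AREG, 0.419 in CCND1, 0.458 in CEBPG, 2.044 in GABRQ, 0.576 in IGF1R, 1.409 in NDRG1, 0.689 in PGR, 1.913 in PKP1, 1.745 in RASD2 and 1.486 in RHOBTB1. In more of these genes it was 1.599 in SGK1, 0.831 in STAT5A and 1.939 in STEAP4. Among genes that rose without hormone and had a larger positive value with progestin, the difference was 0.463 in CDH3, 0.472 in CDK6, 0.963 in IGFBP4, 0.317 in IGFBP5, 0.954 in MYB and 0.485 in PERP. Among genes that rose without hormone and had a smaller positive value with progestin, the difference was -0.355 in BMPR2, -0.428 in BTG2, -0.299 in FKBP5, -0.412 in PLCE1, -0.687 in RET, -0.269 in ZNF652 and -0.720 in ZNF702P. Among genes that rose without hormone and had a negative value with progestin, the difference was -1.652 in ARID5B, -1.338 in DUSP1, -1.349 in EFNA3, -2.703 in NES and -1.494 in PKP2. Among genes not called without hormone, the difference was 0.278 in ESR1, 0.435 in FOXA1 and -0.391 in TBX3.

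Of these 67 differences, 28 were called with the same sign in all 19 alternative fits, 12 were lost only in the test against a fold change of 1.2, and 27 were lost in at least 1 fit without 1 library, namely those of AARS1, ATF4, BMF, BTG2, CDK6, CDKN1A, CEBPA, CEBPB, DDIT4, DSP, ESR1, FAXDC2, GADD45A, GARS1, HK1, HK2, IMPA2, MRPL34, PLCE1, RHPN2, SESN2, SLC3A2, SLC7A1, SLC7A5, TBX3, TJP1 and ZNF652.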

How the results depend on the processing

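In the 19 alternatives, no called change of a gene named above turned its direction. Of 201 named genes called without hormone, 168 stayed called with the same sign in every alternative, and 19 of the 33 that were lost in at least 1 were lost only in the test against a fold change of 1.2. That test called 2094 genes higher and 1699 lower without hormone, 2157 and 1532 with progestin, and 195 positive and 100 negative differences, of which 57 and 22 were at least 2-fold. A filter of 1 CPM in 2 libraries left 458 rises and 241 falls of at least 2-fold without hormone, and 509 and 196 with progestin. Without a filter, 1159 differences were positive. With the replicate number as a block, 4583 genes were higher and 4910 lower without hormone, and 1324 differences were positive and 947 negative. Whether the numbers pair the libraries is not stated, and the main fit has no block. The deviations of same-numbered libraries correlated at 0.394 between the untreated groups. Those of siCEBPA with progestin correlated at 0.501 with untreated siCEBPA and at 0.514 with untreated siControl. For siControl with progestin the correlations with the other groups lay between -0.05 and 0.075. Upper quartile scaling gave 4764 higher and 3709 lower without hormone, scaling by totals 5597 and 2970, and DESeq2 3437 and 4093. With 1 library left out, where the lone library of a group is assumed to vary like the others, the counts ran from 3195 to 4288 higher and 3559 to 4639 lower without hormone, and from 679 to 877 and 322 to 417 at 2-fold or more. With progestin they ran from 2923 to 4180 and 3242 to 4144, and from 686 to 889 and 286 to 374 at 2-fold or more. Differences ran from 383 to 811 positive and 305 to 570 negative, and from 64 to 94 and 28 to 51 at 2-fold or more; without siControl progestin replicate 1 they were 383 and 309, and without replicate 2 of that group 474 and 305, while without siCEBPA untreated replicate 1 there were 359 negative ones. Scaled by totals, the medians of the adhesion list (-0.07), the progestin-induced list (-0.05) and the fatty acid list (-0.01) became 0.03, 0.05 and 0.09. Scaled by totals, further list counts moved by over 1.5 times: inhibitors of proliferation 5 to 8 higher, TGF-beta and BMP genes 6 to 2 lower, secreted proteins 3 to 5 higher, fatty acid genes 10 to 6 lower, and zinc finger genes 24 to 12 lower on chromosome 19 and 48 to 31 elsewhere. DESeq2 called 6 interferon-stimulated genes higher. The 2 libraries of each group leave 4 residual degrees of freedom in the fit, and this number of libraries limits the precision.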
